A study of Rattus norvegicus with 16 samples.

Results

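The hippocampal transcriptome of brain-injured rats given estradiol (TBI+E2, 2 arrays) was compared with that of injured rats given no drug (TBI, 3 arrays). These 5 arrays were chosen by their sample titles from the 16 arrays of the series. All rats were Sprague-Dawley and, per the methods, male. Traumatic brain injury (TBI) was a severe fluid percussion injury, in which a pressure pulse is delivered to the exposed dura, and the whole hippocampus was taken 24 h later. TBI+E2 rats were given 33 ug/kg of 17beta-estradiol, subcutaneously according to the sample labels and intraperitoneally according to the methods. Whether the TBI rats received the vehicle, and when the drug was given relative to the injury, are not given in the sources used here. Each array is 1 rat as far as the labels tell. The methods name 3 rats a group, and 2 TBI+E2 arrays were analysed here.

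Estradiol acts through the nuclear receptors Esr1 and Esr2, which bind a palindromic DNA element as dimers or act through other factors, and through the membrane receptor Gper1. Fast signalling by these receptors runs through kinases such as PI3K and AKT. In the hippocampus the hormone is known for effects on dendritic spines, synaptic transmission and neuron survival, and in injury models for effects on glia, cytokines and apoptosis.

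The drug was not the only difference between the groups. The TBI arrays were scanned in 1 session together with the uninjured Naïve and Sham arrays, and the TBI+E2 arrays in another session together with the arrays of the other drugs in the series, JM6 and PMI-006 (TBI+JM6 and TBI+PMI-006, 3 arrays each). Estradiol and scanning session cannot be told apart in the comparison with TBI. The TBI+E2 arrays also came from a second run of the numbers that close the submitters' array names. Naïve, TBI and the first 2 TBI+PMI-006 arrays carry low numbers, and the Sham, TBI+JM6 and TBI+E2 arrays and the third TBI+PMI-006 array carry high ones. What these numbers stand for is not given in the sources used here. A second comparison, of TBI+E2 with the mean of TBI+JM6 and TBI+PMI-006, stays inside 1 scanning session, but has no untreated injured rat in it. Slide differed as well. All TBI arrays were on slide 2, and both TBI+E2 arrays were on slide 4 with TBI+JM6 2 and TBI+JM6 3. TBI+JM6 1 and the TBI+PMI-006 arrays were on slide 3, so drug and slide partly coincide in the second comparison too. Throughout, a difference is a log2 difference of quantile-normalized signal, a gene is represented by its brightest probe, and a gene is called when the limma adjusted p was under 0.05. Quantile normalization sets the median difference of all probes to 0.00, so each difference is relative to all probes on the array.

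The TBI+E2 arrays had more probes well above background (22892 and 24090) than the TBI arrays (16404 to 18217). Across probes, the 2 TBI+E2 arrays correlated with each other at 0.9859, the TBI arrays at 0.9564 to 0.9724, and TBI+E2 with TBI arrays at 0.9381 to 0.9511. TBI+E2 arrays correlated with those of the other drugs at 0.9647 to 0.9839. TBI 1 stood somewhat apart from TBI 2 and TBI 3, with lower levels of injury genes such as Lcn2 (12.20 against 15.02 and 15.25), and the probe count is also given without it. Crym and Neurod6, which mark neurons of the hippocampal fields, were detected on all 5 arrays, at 12.10 to 14.25, and the thalamic markers Slc17a6 and Prkcd were detected too, at 7.69 to 9.38, levels that are not comparable between probes.

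In TBI+E2 against TBI, 997 of 13867 genes (7.19%) rose and 1534 (11.1%) fell, 18.3% in all. By probe, 2310 of 22823 (10.1%) rose and 2239 (9.81%) fell, 19.9% in all. The probe count of 4549 was 4503 without TBI 1, 2656 without TBI 3, and 1264 and 1169 without TBI+E2 1 and TBI+E2 2. The arrays of the groups did not overlap for 53.1% of genes. Of the probes called higher, 41.2% were below background on all 3 TBI arrays, against 18.4% of all tested probes, and the dimmest 4565 probes held 17.2% called higher and 4.49% called lower. The split depended on the scaling. Scaled as in the methods, to the 75th percentile of probes above background, 16032 probes were called higher and 21 lower, with the median of all probes at 1.08. Under that scaling the median of the cytosolic ribosomal proteins, a bright list at 0.02 here, was 0.29 and that of the respiratory chain, at -0.13 here, was also 0.29, so list medians are given on the quantile scale. Scaled to the 75th percentile of all probes, the split was 6454 and 2768 around a median of 0.25, and with the trend on probe GC content removed it was 2847 and 1717 around 0.08. With the number series of the array names as a block, which only the TBI+PMI-006 group can estimate, 84 probes were called higher and 40 lower. None of the 86 called genes named here stayed called with that block, and 26 and 19 of them did without TBI+E2 1 and TBI+E2 2. Under the methods' scaling 48 stayed called, and 18 of the falls, among them Il1a, Ncoa1, Pclo, Uqcrq, Unc13a, Grik2, Gria3 and Homer1, lay above 0.

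Leading genes were called, detected on all 5 arrays without overlap of the groups, and of the same sign under the alternative scalings. The largest rise among them was in Rpl19-ps25, a processed copy of the ribosomal protein gene Rpl19, with a probe at X:93594348-93594407 (rn4). Its level was 8.75, 9.26 and 9.06 on the TBI arrays and 14.78 and 13.99 on the TBI+E2 arrays, a difference of 5.36 ± 1.37 (SE, limma adjusted p = 0.0192). Its level followed the number series across the groups: Sham arrays were at 14.56 and 14.76, and the TBI+PMI-006 arrays at 8.36, 8.39 and 14.59. Signals of this copy and of Rpl19 itself, which fell by 0.45, are uncertain because the sequences are alike.

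Gfap, the intermediate filament of reactive astrocytes, rose 4.34-fold. Its level was 12.57, 12.90 and 12.82 in TBI and 14.84 and 14.92 in TBI+E2, with no overlap (2.12 ± 0.42, limma adjusted p = 0.0064). In Naïve rats it lay at 10.35 to 10.44, and the Sham arrays were at 12.94 and 11.57. Gfap was higher in the high number series, by 1.35 within TBI+PMI-006 and by 1.86 in Sham against Naïve rats. The other drug arrays reached 13.74 to 15.31, and TBI+E2 differed from them by 0.16. Tmsb10, an actin-sequestering thymosin, stood at 8.88, 9.68 and 9.63 in TBI and at 11.83 and 11.75 in TBI+E2 (2.39 ± 0.29, adjusted p = 0.000777). Canx, a chaperone of the endoplasmic reticulum, stood at 7.71, 6.58 and 6.75 in TBI and at 9.42 and 9.24 in TBI+E2 (2.32 ± 0.29, adjusted p = 0.000777). For both genes all 6 arrays of the other drugs also lay above the TBI range, while the Sham arrays were low for Tmsb10 (8.16 and 8.57) and high for Canx (9.14 and 9.25).

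Kcng1, a modifier subunit of potassium channels, rose by 2.96 ± 0.50 from 6.54 to 7.11 in TBI to 9.73 and 9.76 in TBI+E2 (limma adjusted p = 0.00308), and its second probe read 1.21. Msr1, a macrophage scavenger receptor, stood at 6.25, 8.04 and 7.99 in TBI and at 9.14 and 10.06 in TBI+E2 (2.17, adjusted p = 0.0197). It was at 3.79 to 4.32 in Naïve rats and at 8.43 to 9.68 on the other drug arrays with a value. The other leading rises were Cbx6, a Polycomb subunit (2.28, with a second probe at 1.04), Sh3bgrl1 (2.27), Ormdl3, a regulator of sphingolipid synthesis (2.16), the mitochondrial carrier Sfxn5 (2.11), Rnd1, a small GTPase (2.08), and Ndufb4l1 (2.0).

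Among the falls, Nqo2, a quinone reductase, was lower in both TBI+E2 rats than on any other array of the series. Its probe lies at chr17:37256152-37256211 (rn4). The level was at 9.64, 9.98 and 9.92 in TBI and at 7.3 and 6.98 in TBI+E2, a 6.50-fold difference (-2.70 ± 0.32, limma adjusted p = 0.000665). Across the 14 arrays of the other groups it ranged from 8.49 to 9.98. The difference from TBI+JM6 and TBI+PMI-006 was -1.80 ± 0.29, with an adjusted p of 0.310 over all probes. Over the alternatives that difference ran from -1.97 to -1.22, and it was called under 2 of them, with array weights (adjusted p = 0.0228) and without TBI+PMI-006 replicate 3 (adjusted p = 0.0163).

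Chrna5, a nicotinic acetylcholine receptor subunit, had the largest fall among genes chosen in this way. It was at 6.84, 9.21 and 8.56 in TBI and at 4.56 and 4.21 in TBI+E2 (-3.82 ± 0.81, limma adjusted p = 0.00884). The other leading falls were the epidermal transcription factor Grhl3 (-2.53), the meiotic gene Mei1 (-2.37), Frem3 (-2.37), the lens crystallin Crygd (-2.37), Slitrk6 (-2.31), Cfap43 (-2.29), Ceacam16 (-2.28), Milr1 (-2.24) and Tsc22d2 (-2.20). Each was at or under 9.35 on every TBI array. The TBI detection floor is the lowest level at which probes counted as above background on the TBI arrays. Apart from Mei1 (6.46), the TBI+E2 means of these falls and of Chrna5 were 4.23 to 5.43, under that floor. These probes were above background on both TBI+E2 arrays, so levels this low are not comparable between the groups. The sizes of these falls are uncertain, as are those of Il1a, Cacna1s, Epha2, Uqcrq and Unc13a below.

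**Figure D1:**
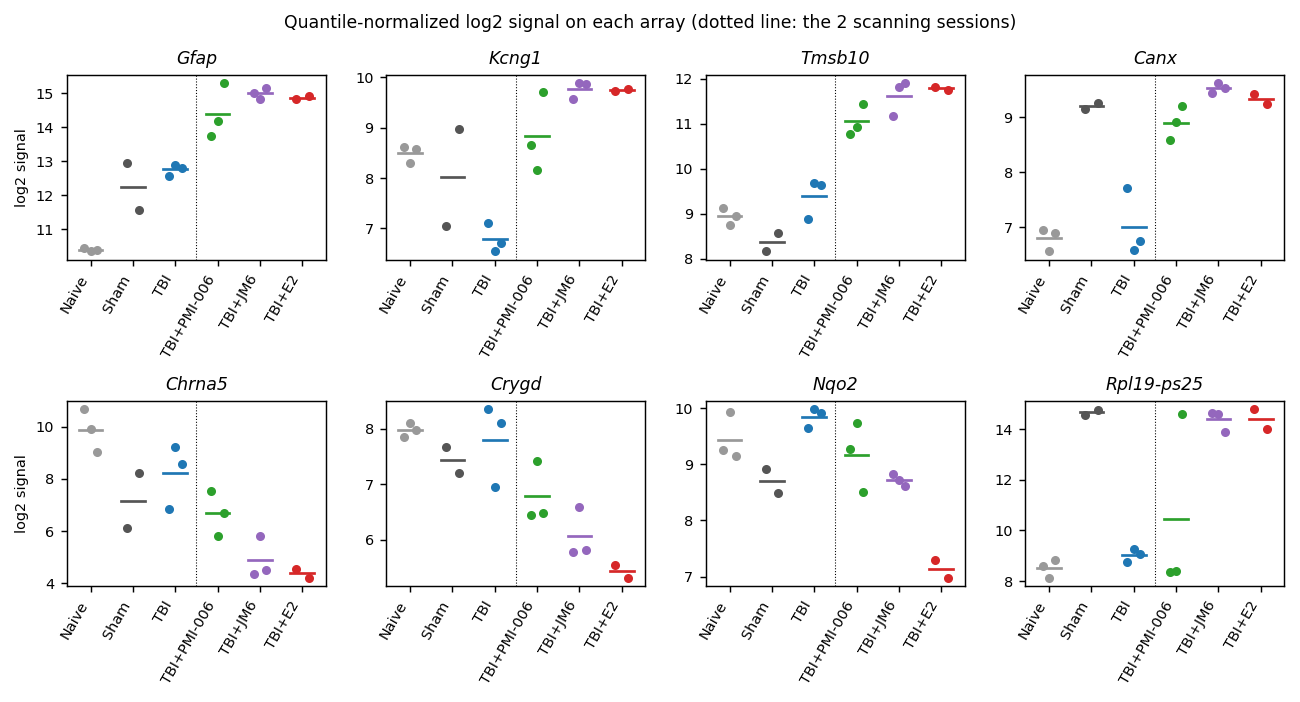
Quantile-normalized log2 signal (vertical axis) of 8 of the leading genes on each of the 16 arrays, by group; a point is an array, a horizontal line the group mean, and the dotted line parts the scanning sessions. Nqo2 is lower in both TBI+E2 rats than on any other array, while Gfap, Tmsb10 and Canx are high in all 3 drug groups and Rpl19-ps25 is high in Sham rats too.

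The 24 leading genes, 12 rises and 12 falls, were set beside the other groups. They were picked because TBI+E2 and TBI arrays did not overlap. The counts that follow were not computed over all genes, so they are descriptions only. For 14 of the 24 leading genes, all arrays of the other drugs with a value lay outside the TBI range as well. In 3 of the 24, Ndufb4l1, Nqo2 and Crygd, both TBI+E2 arrays lay outside the range of those 6 arrays. For 13 of the 24, both Sham arrays lay beyond the TBI range on the TBI+E2 side. Number series and change went the same way in 20 of the 24 within TBI+PMI-006, and not in Msr1, Ndufb4l1, Chrna5 and Milr1. The high series differed there by 1.68 for Ormdl3, -2.17 for Tsc22d2, -2.87 for Mei1 and -1.01 for Nqo2. Sham minus Naïve for these 4 genes was 1.95, -2.24, -1.55 and -0.74. Several of these sizes are near the differences from TBI. Over all called probes, the third TBI+PMI-006 array minus the first 2 had a median of 0.04 in probes called higher (54.6% above 0) and of -0.07 in probes called lower (37.0% above 0), against 0.00 (50.5%) in all tested probes. Sham minus Naïve had medians of 0.12, -0.22 and -0.02 in the same order. The part of the number series in the comparison was not tested beyond the block above.

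Against TBI+JM6 and TBI+PMI-006 together, 0 of 22824 probes were called by limma (percent called 0), and the smallest adjusted p was 0.219. An unadjusted p under 0.05 was reached by 1461 probes. The t-test of the methods with its fold limit gave 1342, and 1 after Benjamini-Hochberg adjustment. No gene was therefore called in the same direction in both comparisons. For probes called higher against TBI, the median difference from the other drugs was 0.20 (quartiles 0.01 and 0.45), and for those called lower -0.14 (quartiles -0.31 and -0.02), against 0.01 (quartiles -0.16 and 0.18) in all tested probes. On simulated data with these arrays' spread, 71.2% of 4-fold and 47.8% of 2-fold changes were recovered in this comparison, and 8.96% of changes of 0.5 on the log2 scale, so small differences between the drugs would mostly be missed.

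Esr1, the main receptor of estradiol in many tissues, was not above background on any of the 16 arrays, and the progesterone receptor Pgr, a classical target, was above background on 1 TBI+E2 array and no TBI array. Neither was tested, and Greb1 was not analysed here. Esr2 was above background on both TBI+E2 arrays (4.94 and 5.53) and on no TBI array (3.85, 5.29 and 2.62), and its difference of 1.31 ± 0.77 was not called (limma adjusted p = 0.238). The groups overlapped. Gper1 was at 6.80, 7.04 and 6.78 in TBI and at 7.26 and 7.63 in TBI+E2 and rose by 0.57 ± 0.17 (limma adjusted p = 0.0378). Over 19 alternative settings the Gper1 difference ran from 0.14 to 2.01, and the call was kept in 9 of them. Of 19 receptors and coregulators, 2 rose (10.5%) and 2 fell (10.5%), near the shares of all genes, with a list median of 0.16. Phb2, which represses estrogen receptor activity, rose by 0.60. The coactivator Ncoa1 fell by 0.59 (11.84 to 12.01 in TBI, 11.31 and 11.40 in TBI+E2), and the acetyltransferase Ep300 fell by 0.84 (10.87, 11.26 and 11.21 in TBI, 10.18 and 10.38 in TBI+E2). TBI+E2 differed from the other drugs by 0.13 for Gper1, 0.14 for Phb2, 0.02 for Ncoa1 and 0.16 for Ep300. The Gper1 mean was 7.44 in TBI+E2, 7.42 in Naïve and 6.64 in Sham rats.

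None of 27 tested estrogen-responsive genes was called in either direction, against 18.3% of all genes, and their median was -0.17. Bdnf, the neurotrophin, was at 7.52, 7.19 and 7.62 in TBI and at 7.07 and 6.20 in TBI+E2 (-0.81 ± 0.85, limma adjusted p = 0.528). Igf1 was at 8.96, 9.47 and 9.55 in TBI and at 8.75 and 9.24 in TBI+E2 (-0.33). Bcl2, which blocks apoptosis, was above background on 1 TBI array and both TBI+E2 arrays (0.48, adjusted p = 0.588). The groups overlapped for Igf1 and Bcl2 and not for Bdnf.

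Promoter sequences were searched for the full estrogen response element, GGTCA and TGACC parted by any 3 bases, on both strands. In windows of 250 bases before to 50 after the RefSeq gene start (GRCr8), it lay in 0 of 816 promoters of genes called higher, 0 of 1282 of genes called lower, 2 of 11317 of tested genes (0.0177%) and 9 of 33469 of all promoters (0.0269%). Its 5-base core alone, GGTCA or TGACC, lay in 38.0% of promoters of genes called higher, 40.1% of those called lower, 37.9% of those of tested genes and 40.5% of all promoters. These matches are descriptions of the windows and not sites of binding. The promoters of Gfap, Nqo2 and the 2 AKT kinases described below are shown because the results turn on these genes and each window holds the core, which is in capitals.
Gfap promoter (GRCr8 chr10:88361612-88361911, minus strand): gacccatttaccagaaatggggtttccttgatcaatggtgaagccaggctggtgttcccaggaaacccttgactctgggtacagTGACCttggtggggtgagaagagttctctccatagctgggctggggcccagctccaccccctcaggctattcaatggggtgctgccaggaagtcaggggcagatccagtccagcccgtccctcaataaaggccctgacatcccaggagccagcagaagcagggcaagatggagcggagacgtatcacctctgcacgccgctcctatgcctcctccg
Nqo2 promoter (GRCr8 chr17:31143613-31143912, minus strand): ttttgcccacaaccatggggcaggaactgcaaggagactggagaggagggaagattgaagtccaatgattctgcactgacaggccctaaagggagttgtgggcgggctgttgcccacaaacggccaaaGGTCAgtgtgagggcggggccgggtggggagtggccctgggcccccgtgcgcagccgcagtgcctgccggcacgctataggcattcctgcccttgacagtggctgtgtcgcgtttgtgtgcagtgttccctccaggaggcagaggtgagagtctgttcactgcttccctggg
Akt1 promoter (GRCr8 chr6:137552561-137552860, minus strand): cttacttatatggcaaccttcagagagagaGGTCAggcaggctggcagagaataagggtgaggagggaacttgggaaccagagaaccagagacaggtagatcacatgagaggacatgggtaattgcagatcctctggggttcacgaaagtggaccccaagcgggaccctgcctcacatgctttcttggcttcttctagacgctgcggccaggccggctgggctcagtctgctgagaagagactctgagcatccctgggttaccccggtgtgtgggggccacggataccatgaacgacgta
Akt2 promoter (GRCr8 chr1:92021667-92021966, plus strand): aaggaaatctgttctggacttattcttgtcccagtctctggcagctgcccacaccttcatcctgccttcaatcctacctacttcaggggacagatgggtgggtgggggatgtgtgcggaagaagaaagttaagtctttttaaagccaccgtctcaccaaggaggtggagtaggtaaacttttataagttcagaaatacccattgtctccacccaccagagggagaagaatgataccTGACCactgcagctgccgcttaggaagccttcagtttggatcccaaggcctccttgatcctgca

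Kinases of the pathway used by membrane estrogen signalling were examined next. Of 22 PI3K and AKT genes, 5 were called higher (22.7%, against 7.19% of all genes) and none lower (against 11.1%). The list median was 0.13, and 0.04 against the other drugs. For 2 of these 5, Pik3r3 and Pik3cd, no rise is shown, since both were below background on all TBI arrays and their TBI+E2 means lay under the TBI detection floor. Akt1 stood at 10.44, 10.17 and 10.27 in TBI and at 10.91 and 10.90 in TBI+E2 (0.61 ± 0.13, limma adjusted p = 0.00908). Akt2 stood at 7.58, 7.60 and 7.32 in TBI and at 8.78 and 8.71 in TBI+E2 (1.25 ± 0.34, adjusted p = 0.0264). Neither gene's groups overlapped. Pdpk1, the kinase that activates AKT, rose by 0.58 (adjusted p = 0.0458). The regulatory subunit Pik3r3 and the catalytic subunit Pik3cd read 2.26 to 3.47 and 3.19 to 3.24 against 4.67 to 4.91 and 4.41 to 4.53 in TBI+E2. The other 3 of the 5 were above background on all TBI arrays. Akt2 and Pdpk1 are named after their values were seen. Against the other drugs TBI+E2 was at 0.15 for Akt1, 0.43 for Akt2 and -0.03 for Pdpk1, and Akt2 differed between number series within TBI+PMI-006 by 1.14.

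**Figure D2:**
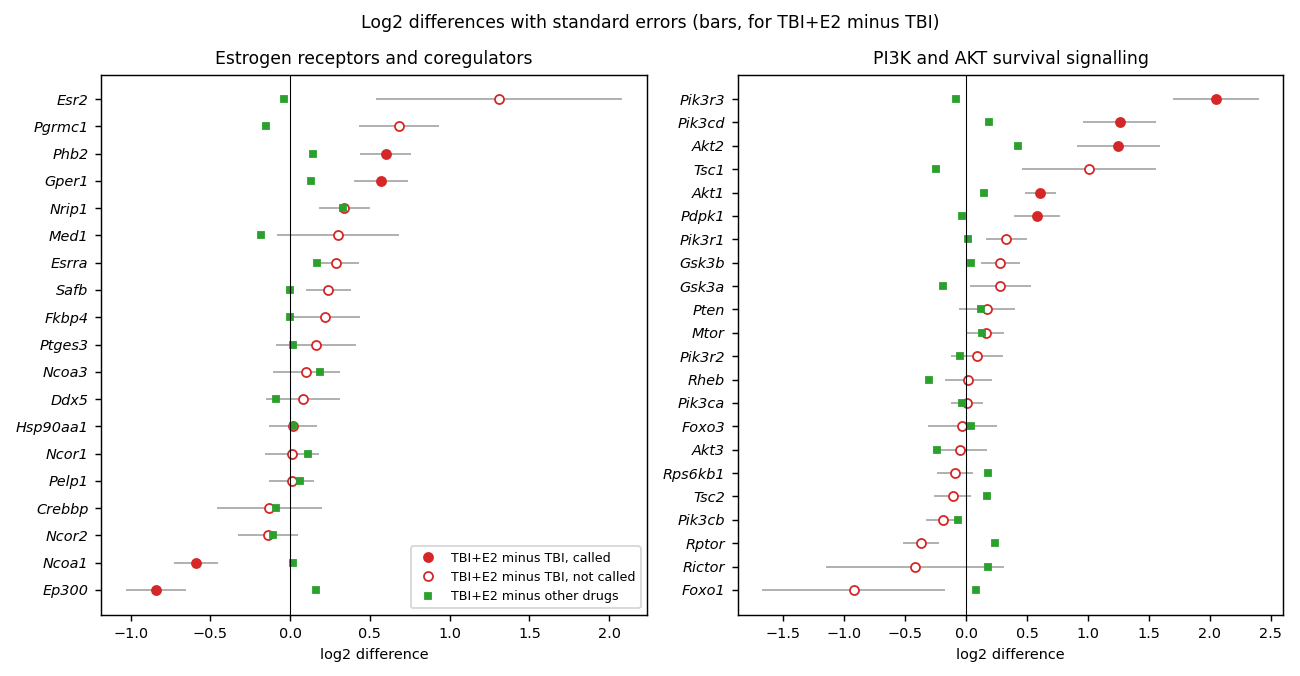
Log2 difference (horizontal axis) of each tested gene of the estrogen receptor and coregulator list (left) and the PI3K and AKT list (right). Circles are TBI+E2 minus TBI with SE bars, filled where called, and squares are TBI+E2 minus the mean of the other drugs; the called genes lie away from 0, among them Pik3r3 and Pik3cd, which were below background on all TBI arrays, while every square lies within 0.43 of 0.

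Among genes of cell death, 1 of 15 in the BCL2 family rose (6.67%, against 7.19% of all genes) and none fell. It was Bid, a proapoptotic member (7.36, 7.19 and 7.41 in TBI, 7.87 and 7.92 in TBI+E2, 0.58 ± 0.15, limma adjusted p = 0.0200). Of 21 caspases and calpains, 1 rose (4.76%) and 2 fell (9.52%, against 11.1% of all genes), near the shares of all genes. Capns1, the small calpain subunit, rose by 0.63, while Capn6, a calpain without protease activity, fell by 1.64 (8.48, 7.59 and 8.12 in TBI, 6.35 and 6.50 in TBI+E2) and Capn7 fell by 0.53.

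Of 24 cytokines and chemokines, 2 were called higher (8.33%) and 1 lower (4.17%), against 7.19% and 11.1% of all genes, with a median of 0.26. Il1a was at 6.62, 5.91 and 5.96 in TBI and fell by 1.58 to 4.64 and 4.52 in TBI+E2 (limma adjusted p = 0.0171). It was a dim gene, above background on 2 of the 3 TBI arrays. Its TBI+E2 mean of 4.58 lay under the TBI detection floor, so the size of the fall is uncertain. Its mean was 6.66 in Naïve rats, 5.2 in Sham rats and 6.16 in TBI. TBI+E2 differed from the other drugs by -0.43 for Il1a. Tgfb1 was at 7.33, 7.3 and 7.45 in TBI and rose by 0.59 to 7.89 and 8.02 (adjusted p = 0.0346). The T cell chemoattractant Cxcl11 stood at 3.03, 5.11 and 5.58 in TBI, not well above background, and at 6.78 and 7.23 in TBI+E2. It was higher in TBI+E2, at least 2.35-fold (limma adjusted p = 0.0200). The other drug arrays were at 6.91 to 7.22 for Cxcl11, and TBI+E2 differed from them by -0.05. For Tgfb1 that difference was -0.04.

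Several well known injury cytokines did not pass the test. Tnf was at 7.70, 7.73 and 7.73 in TBI and at 6.68 and 6.89 in TBI+E2, without overlap (-0.93 ± 0.43, limma adjusted p = 0.145). Ccl2, which draws monocytes, was at 11.41 to 12.50 in TBI and at 11.48 and 11.43 in TBI+E2 (-0.51 ± 0.78, adjusted p = 0.673). Il1b was at 4.80, 7.58 and 7.01 in TBI and at 7.16 and 7.73 in TBI+E2 (0.98 ± 0.66, adjusted p = 0.308). For Ccl2 and Il1b the groups overlapped. Lcn2, an acute-phase protein that neutrophils and astrocytes release, was at 14.73 and 14.86 in TBI+E2, within the TBI range (0.64 ± 0.79), and at 6.71 to 8.35 in Naïve rats.

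None of 15 complement genes and none of 15 metalloproteinases and their inhibitors was called, against 18.3% of all genes. Of 27 acute injury genes, 1 was called (3.7%), Gfap. Of 14 microglia and macrophage genes, none rose and 1 fell (7.14%, against 11.1% of all genes), Trem2, the microglial lipid receptor (11.16, 11.57 and 11.51 in TBI, 10.70 and 10.56 in TBI+E2, -0.78, limma adjusted p = 0.0329). Their median was -0.32, and their summed level was 63800 to 81000 in TBI, 54600 to 56700 in TBI+E2, 53200 to 57000 in TBI+PMI-006 and 47300 to 60800 in TBI+JM6. In Naïve and Sham rats it was 44600 to 49300 and 41200 to 59900. In bulk tissue, fewer cells of a type and less RNA per cell cannot be told apart.

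Among astrocyte markers, 2 of 12 rose (16.7%, against 7.19% of all genes) and none fell (against 11.1%), with a median of 0.11. Beside Gfap this was Glul, glutamine synthetase, at 11.73, 11.72 and 10.97 in TBI and at 12.93 on the only TBI+E2 array with a value (1.46 ± 0.36, limma adjusted p = 0.0179). This test assumes that the lone value varies like those of the other groups, and without Glul 1 of the list was called. S100b (0.01), Slc1a3 (-0.28, with a second probe at 0.89) and Aldoc (-0.23) were not called, and the summed level of the 11 markers with a value on every array was 113000 to 162000 in TBI and 143000 to 151000 in TBI+E2. Among 13 endothelial and pericyte genes 1 rose (7.69%, near the 7.19% of all genes), the adhesion molecule Cdh5 (6.51, 6.53 and 6.74 in TBI, 7.94 and 8.18 in TBI+E2, 1.46 ± 0.22, adjusted p = 0.00179). None of 14 oligodendrocyte genes was called (Mbp 0.53), none of 11 leukocyte genes, none of 7 red blood cell genes and none of 10 choroid plexus genes, against 18.3% of all genes. The summed choroid plexus level was 3190 to 10700 in TBI and 3590 to 3870 in TBI+E2, and that of leukocytes 2700 to 7720 and 4890 to 6300. Of 10 thalamus genes, only Rgs16 rose (1.48), 10% of the list against 7.19% of all genes.

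Of 32 genes of the synaptic vesicle release machinery, 7 rose (21.9%, against 7.19% of all genes) and 4 fell (12.5%, near the 11.1% of all genes), with a median of 0.37. Syn1, a synapsin that tethers vesicles, stood at 10.79, 9.19 and 9.58 in TBI and at 11.16 and 11.15 in TBI+E2 (1.3 ± 0.36, limma adjusted p = 0.0278). Slc17a7, the vesicular glutamate transporter of excitatory neurons, stood at 10.10, 8.60 and 9.42 in TBI and at 10.58 and 10.41 in TBI+E2 (1.12, adjusted p = 0.0342). In both genes TBI 1 was the TBI array nearest to TBI+E2. Rims1 (1.2), Syn2 (1.13), Rab3a (0.96) and Sv2b (0.65), named after their values were seen, rose too.

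The 4 falls in that list were Napa, which recycles SNARE complexes (13.86, 13.04 and 13.41 in TBI, 12.41 and 12.39 in TBI+E2, -1.04 ± 0.25, limma adjusted p = 0.0160), the active zone scaffold Pclo (-0.77, with a second probe at -0.26), Syt5 (-0.57) and Unc13a (-0.55). Unc13a was dim, above background on 2 of the 3 TBI arrays. Against the other drugs the list median was -0.06. For Syn1 the Sham mean was 11.04 and the other drug arrays were at 10.95 to 11.25, while the Naïve mean was 9.92. Among the general neuron markers 1 of 14 rose (7.14%, near the 7.19% of all genes), Slc17a7, and Snap25 (0.20) and Stmn2 (-0.02) were not called.

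Of 13 GABA-A receptor subunits, 2 were called higher (15.4%, against 7.19% of all genes) and none lower (against 11.1%). The median was 0.44, and 3 of the 13 were below background on all TBI arrays. Gabrp, 1 of the 2, was among these 3 (2.96 to 3.72, against 5.0 and 5.71), and no rise is shown for it. Of 14 ionotropic glutamate receptors 8 lay above 0, with a list median of 0.23. Of the 14, none was called higher and 2 were called lower (14.3%, against 11.1% of all genes). These were the kainate subunit Grik2 (-0.76) and the AMPA subunit Gria3 (-0.48), while a second probe of each read 0.12 and 0.96. Gria2 was at 7.61, 7.43 and 7.71 in TBI and at 6.99 and 6.73 in TBI+E2 (-0.72, adjusted p = 0.0641, with a second probe at 0.04), and Grin1 at 8.06, 7.26 and 7.32 and at 8.21 and 8.19 (0.65, adjusted p = 0.0656, with a second probe at 1.45). Both missed the threshold without overlap of their groups. Of 8 metabotropic receptors, none was called higher and 2 were called lower (25%, against 11.1% of all genes), among them Grm6 (-1.19). By sign, 6 of the 8 lay above 0. Their list median was 0.31, and 0.55 against the other drugs. The activity-dependent scaffold gene Homer1 fell by 0.63 and was the only call among 20 immediate early genes (5%, against 18.3% of all genes).

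Of 81 potassium channel genes 6 were called higher (7.41%, near the 7.19% of all genes) and 2 lower (2.47%, against 11.1%). Of the 6, 3 were below background on all TBI arrays, among them the astrocytic inward rectifier Kcnj10, at least 1.14-fold higher. Kcnd1 fell by 0.59. Of 30 voltage-gated sodium and calcium channel genes 4 were called higher (13.3%), 1 of them below background on all TBI arrays, and 2 lower (6.67%). These included the calcium channel subunits Cacnb4 (1.16, with a second probe at -0.18), Cacna2d1 (-0.68) and Cacna1s (-1.17), and Cacna2d2, at least 1.29-fold higher. Of 62 axon guidance genes 6 were called higher (9.68%) and 5 lower (8.06%), and 4 of the 6 were below background on all TBI arrays. Sema7a was at 5.38, 5.78 and 5.07 in TBI and at 7.32 and 7.31 in TBI+E2 (1.91 ± 0.36, limma adjusted p = 0.00511), while the semaphorin receptor Plxnb3 fell by 1.11 and the ephrin receptor Epha2 by 1.38. The guidance receptor Plxna4 was not well above background in TBI, and no fold is given for it.

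The mitochondrial respiratory chain, which makes ATP by oxidative phosphorylation, had 79 tested genes, of which 12 fell (15.2%, against 11.1% of all genes) and 3 rose (3.80%, against 7.19%). The brightest 4565 probes held 8.30% called lower and 5.43% called higher. In the list 59 of the 79 differences were below 0, with a median of -0.13. Ndufa7, of complex I, stood at 10.39, 10.33 and 10.70 in TBI and at 9.58 and 9.40 in TBI+E2 (-0.99 ± 0.16, limma adjusted p = 0.00267). Uqcrq, of complex III, stood at 6.53, 6.16 and 6.64 in TBI and at 5.33 and 5.61 in TBI+E2 (-0.97 ± 0.23, adjusted p = 0.0130). The ATP synthase subunit Atp5f1b rose from 13.05, 12.69 and 12.76 to 13.47 and 13.38 (0.59, adjusted p = 0.0116). Against the other drugs, TBI+E2 was at -0.27 for Ndufa7 and at 0.59 for Uqcrq, and the list median was -0.03.

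In glycolysis and hypoxia genes the single call among 25 (4%, against 18.3% of all genes) was Hk1, the hexokinase of brain, at 10.81, 10.36 and 10.37 in TBI and at 11.96 and 12.02 in TBI+E2 (1.48 ± 0.19, limma adjusted p = 0.000872). It stood above the other drugs by 0.51. Of 20 NRF2 and antioxidant genes 1 rose (5%, against 7.19% of all genes), Keap1, the adaptor that leads NRF2 to degradation (9.29, 8.82 and 8.72 in TBI, 10.19 and 10.36 in TBI+E2, 1.33 ± 0.27, adjusted p = 0.00715). Of 20 cholesterol genes 1 rose (5%, against 7.19% of all genes) and 3 fell (15%, against 11.1%). Sc5d rose by 1.29, whereas Msmo1 (13.67, 13.49 and 13.43 in TBI, 12.86 and 12.53 in TBI+E2), Dhcr7 and Nsdhl fell by 0.84, 0.75 and 0.64, all enzymes of sterol synthesis.

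Of 75 cytosolic ribosomal proteins 2 rose (2.67%, against 7.19% of all genes) and 2 fell (2.67%, against 11.1%), Rpl7a (1.3) and Rpl12 (0.39) against Rpl36 (-0.50) and Rpl19 (-0.45, with a second probe at -1.55), and the median was 0.02. Ribosomal protein genes have many near-identical copies, so single values are uncertain. Of 39 proteasome subunits 3 were called higher (7.69%) and 3 lower (7.69%), near the shares of all genes, with Psmd13 at 1.13 and Psma5 and Psmd1 both at -0.46, and the testis subunit Psma8, not well above background in TBI, at least 1.39-fold higher. Of 19 heat shock genes 1 fell (5.26%, against 11.1% of all genes), Hsp90ab1 (-0.43). None of 13 neurotrophin genes, 16 clock genes and 11 glucocorticoid-responsive genes was called, against 18.3% of all genes.

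**Figure D3:**
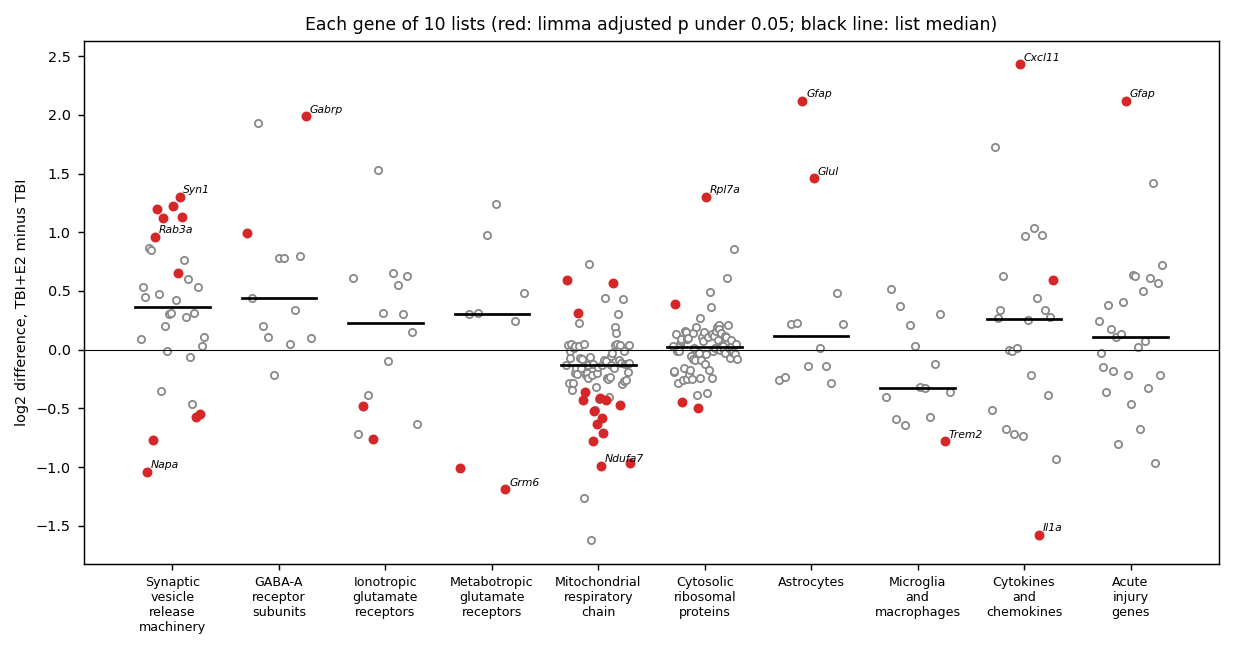
Log2 difference (vertical axis), TBI+E2 minus TBI, of each tested gene of 10 lists. A point is a gene, red where the limma adjusted p was under 0.05, and the black line is the list median; the respiratory chain spreads below 0 and the vesicle machinery above it, with Gfap, Glul, Cxcl11 and Il1a far from the rest of their lists.

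**Figure D4:**
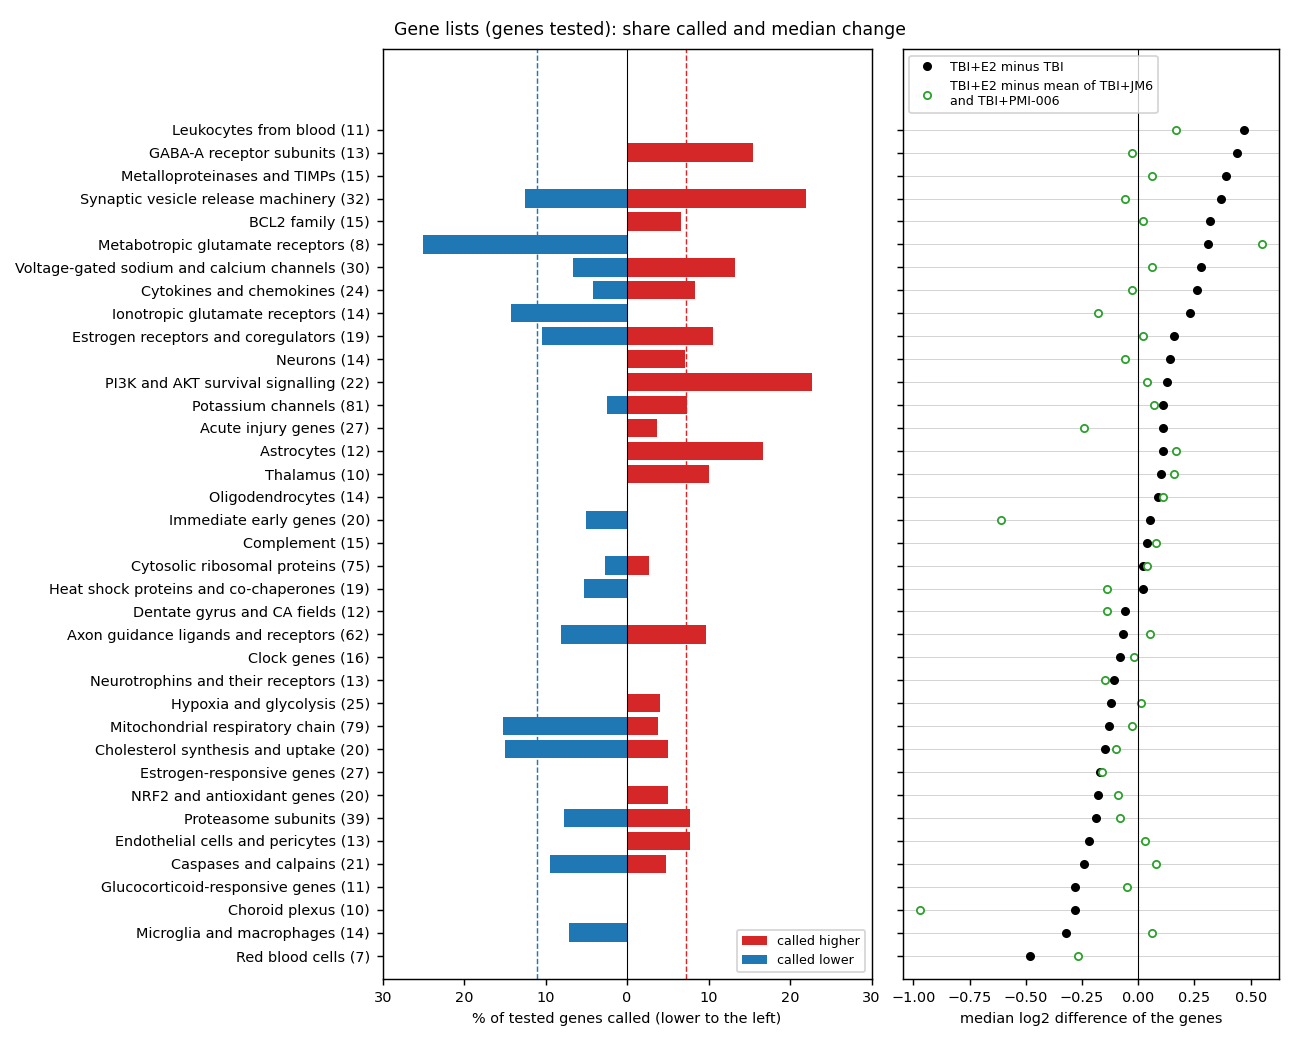
For each gene list, with its number of tested genes, the share of genes called higher (right) and lower (left) with dashed lines at the shares of all genes (7.19% and 11.1%), and on the right panel the median log2 difference from TBI (filled) and from the other drugs (open). The synaptic vesicle list lies past both lines, the rightward bars of the PI3K and AKT, GABA-A and astrocyte lists include genes below background in TBI or measured on 1 TBI+E2 array, and the metabotropic receptor, respiratory chain, cholesterol and ionotropic receptor lists lie past the dashed line on the left.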

How the data were processed

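Whole-hippocampus RNA of 16 rats was hybridised to single-colour Agilent rat arrays. The methods name more than 1 amplification kit, with no rat assigned to any. The deposited values are spot intensity from Feature Extraction 9.5.3.1, background subtracted and detrended by the authors within each array, with no scaling between arrays. The authors also deposited a matrix of ratios on a linear scale, which after log2 was an alternative. Probe positions are rn4, and symbols came from a RefSeq table, which named 68.1% of 30367 probes.

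Non-control spots were averaged by probe, quantile normalized and taken to log2. A probe entered the test if all arrays of any of the 6 groups had it well above background. The test was 1 limma model of group means over 16 arrays (10 residual degrees of freedom, Benjamini-Hochberg adjustment). A gene is its probe with the highest mean signal. The methods' t-test was run here with equal variances assumed. "At least" folds set the brighter mean against the dim group's floor of probes above background. Named genes were the 12 largest called rises and falls detected and non-overlapping on all 5 arrays, up to 2 called rises and falls per list, the 3 brightest genes of each cell list and a short set of estrogen and injury genes. Genes and lists were chosen with earlier results of these data known. On simulated data, where 200 of 21901 probes were altered, the fit made 4 false calls. The simulation held no effect of session, slide or number series, so it cannot tell how many real calls come from these. Array number limits the precision. Some genes that the rule names are not reported here. P-values set each difference against the spread between rats within the 6 groups, pooled over the 16 arrays. They do not account for differences of session, slide or number series between TBI+E2 and TBI. Software was limma 3.58.1 in R 4.3.3. Figures came from matplotlib 3.10.9 in Python 3.11.15.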

Additional observations from a re-analysis of the deposited data

How the results depend on the processing

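In TBI+E2 against TBI, the count of 4549 called probes was 16053 under the methods' scaling, 9222 with scaling to the 75th percentile of all probes, 8366 with array weights, 1565 with the compared groups alone, and 1169 to 4503 with 1 array left out. The methods' t-test gave 5749 at its own limits (2536 higher, 3213 lower) and 171 after Benjamini-Hochberg adjustment, and the number series as a block, chosen after seeing the data, 124. Splits of higher against lower calls were 1223 and 2072 with probes above background on all 16 arrays, 1325 and 2221 with probes above background on all arrays compared, and 960 and 605 with the compared groups alone. Numbers shared by TBI and TBI+E2 replicates did not pair them (r across probes 0.01 and -0.02), and the replicate block gave 4039 calls and kept 70 of the 86 called genes that are named. Against the other drugs, the count of 0 was 6 under the methods' scaling, 7 with scaling to all probes, 13 in the authors' matrix, 1 with probes above background on all 16 arrays, 2 with the compared groups alone, 45 with array weights, 1 within the number series (also added after seeing the data), 1342 by the methods' t-test (1 after adjustment) and 0 to 8 with 1 array left out.

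Of the 86 called genes, 86 stayed called with array weights or slide as a random block, 82 in the authors' matrix, 67 with normexp background, 48 under the methods' scaling and 32 with the compared groups alone. The random block cannot remove a slide difference here, since TBI and TBI+E2 arrays shared no slide. Its estimated correlation within slides was -0.109, and it gave 6675 called probes. Under the methods' scaling, where the median of all probes was 1.08, these differences turned positive: Cacna1s 0.89, Uqcrq 0.86, Gria2 0.62, Il1a 0.44, Kcnd1 0.43, Epha2 0.41, Pclo 0.33, Grm6 0.31, Capn7 0.22, Nsdhl 0.17, Grik2 0.15, Homer1 0.09, Psma5 0.08, Gria3 0.07, Psmd1 0.03, Ncoa1 0.02, Dhcr7 0.01, Hsp90ab1 0.01 and, above that median, Unc13a 1.38. Scaled to all probes, Unc13a was at 0.55, Cacna1s at 0.06, Uqcrq at 0.03, Rpl12 at -0.11 and S100b at -0.53. Over all its probes Gria3 was at 0.24, and with the number series as a block Mei1 was at 0.50 and Rpl19-ps25 at -0.85. The cause was not tested. In simulated data 32.8% of 2-fold changes between TBI+E2 and TBI were recovered. Only 200 of 21901 probes were altered there, while 19.9% were called in the real comparison, so that share need not hold for it.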
